A study of Mus musculus with 10 samples.

Results

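Antioxidant and glutathione genes were followed in LT-HSCs, the long-term blood stem cells, of the mouse fetal liver. The set is a list of 37 genes: glutathione peroxidases, peroxiredoxins, thioredoxins, glutaredoxins, the enzymes that make and reduce glutathione, superoxide dismutases and catalase, the NRF2 regulator pair with its target Nqo1, and glutathione transferases. All 37 were present among the 17404 genes of the deposited count table, and all 37 passed the filter on low counts, as did 16725 genes in all. The list is given by gene name, with no threshold on a measured value. Bulk RNA-seq was available for 10 libraries from embryos at E14.5. The 6 KO libraries came from embryos labelled Tnfrsf11aCre; Spi1f/f, and the 4 WT libraries from embryos labelled Tnfrsf11a+/+; Spi1f/f, so the floxed Spi1 alleles are shared by both groups and the Cre is the difference. Cre from the Tnfrsf11a locus acts in macrophage progenitors, and Spi1 encodes PU.1, a transcription factor that macrophages need, so the KO liver is a model of macrophage loss around the stem cells rather than of a gene deleted in them by design. The question was how the transcripts of LT-HSCs differ when liver macrophages are depleted.

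Cells that use oxygen make superoxide and hydrogen peroxide. Superoxide dismutases turn superoxide into hydrogen peroxide, which catalase, glutathione peroxidases and peroxiredoxins remove; glutathione and thioredoxin give the electrons, and their reductases recharge them from NADPH. Glutathione transferases couple glutathione to reactive compounds, and the transcription factor NRF2, held down by KEAP1, switches on many of these genes under oxidative stress. Blood stem cells are known to depend on low levels of reactive oxygen for their long-term function, and erythroid cells are known for very high levels of several of the same enzymes.

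NRF2 binds, together with small MAF proteins, to the antioxidant response element, whose core is TGACNNNGC, or GCNNNGTCA on the other strand. RefSeq promoter windows (GRCm38.p6, 250 bases before to 50 bases after a gene's start) were at hand for 33 of the 37 genes. The core was present in 8 of these 33 genes (24.2%), against 14% of all 27025 genes with a window. A gene can have more than 1 window. Counted by window, the core was in 18.2% of the 44 windows of these genes, against 12.4% of all 32851. The matches are shown with 10 bases on each side, 5′ to 3′ on the strand of the gene, with the core in capitals, because NRF2 is itself a member of the set and several of the others are known targets:
Nfe2l2, chr2:75704885-75704913, minus strand: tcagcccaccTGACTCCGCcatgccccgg
Srxn1, chr2:152105542-152105570, plus strand: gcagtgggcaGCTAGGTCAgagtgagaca
Gstm5, chr3:107895802-107895830, plus strand: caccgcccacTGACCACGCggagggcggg
Gclm, chr3:122245413-122245441, plus strand: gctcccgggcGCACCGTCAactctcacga
Prdx1, chr4:116685456-116685484, plus strand: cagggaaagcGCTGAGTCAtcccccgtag
Mgst1, chr6:138140461-138140489, plus strand: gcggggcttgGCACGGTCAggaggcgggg
Txnrd1, chr10:82859104-82859132, plus strand: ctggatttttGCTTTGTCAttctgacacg
Sod1, chr16:90220696-90220724, plus strand: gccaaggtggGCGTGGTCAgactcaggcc
A match to these letters is a description and not a bound site. Of the 8 genes, 6 had a log2 fold change below 0 in KO against WT (below), from -1.23 for Gclm to -0.27 for Nfe2l2, the gene of NRF2 itself. Of all 37 genes, 30 were below 0, so the count is not particular to genes with the core. Srxn1 and Mgst1 were the other two, at 0.53 and 0.14.

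Depth was 5315435 to 30941726 counts per library in KO and 7633446 to 18256010 in WT. Markers of LT-HSCs were present in every library, with 13 of 13 measured and none at 0, but their summed level was 827 to 2111 CPM in KO and 597 to 900 CPM in WT, and Mecom, Hlf, Cd34 and Hoxa9 were among the markers higher in KO. CPM are counts scaled to the size of the library, normalized by TMM. RNA of other cells was present too. The erythroblast markers (11 of 12 measured, none at 0) summed to 2273 to 95272 CPM in KO and 2872 to 240889 CPM in WT, mostly on globin, with a median log2 fold change of -1.37. Globin genes took 0.373, 0.296, 0.383, 1.99, 6.0 and 12.4% of the counts in KO replicates 15405, 15406, 15409, 15411, 15412 and 15415 and 0.124, 2.44, 23.5 and 0.428% in WT replicates 15416, 15417, 15418 and 15420. Early erythroid markers did not follow the globin share in every library. Klf1, an erythroid transcription factor, was at 115, 132, 69.9, 63.6, 110 and 211 CPM in KO and at 747, 276, 777 and 62.7 CPM in WT (log2 fold change -1.99, edgeR adjusted p = 0.101), and Epor, the erythropoietin receptor, was called lower in KO, at 43.4 to 88.8 CPM against 65.4 to 163 CPM in WT (edgeR adjusted p = 0.0937). WT replicate 15416 had the lowest globin share of the 10 libraries and the next to highest Klf1, while WT replicate 15418 was highest for both. Macrophage markers (11 of 12 measured) summed to 213 to 921 CPM in KO and 91.5 to 707 CPM in WT, with a median log2 fold change of -1.15. The scavenger receptor Marco was at 0 in 6 of 6 KO libraries and at 3.41, 5.32, 14.3 and 4.53 CPM in WT, and was the 1 macrophage marker called lower (edgeR adjusted p = 0.0824). The macrophage sum was mostly Mrc1 and Vcam1, at 65.4 to 714 and 51.7 to 155 CPM in KO and at 3.11 to 489 and 55.1 to 71.2 CPM in WT. Mrc1 was on the endothelial list as well. It was lowest in WT replicate 15416, where the endothelial markers Stab2 and Lyve1 were at 6.07 and 10.2 CPM. It was highest in KO replicate 15409, where they were at 2118 and 1576 CPM. The sum is therefore no measure of macrophage RNA alone. Hepatoblast, endothelial, megakaryocyte and granulocyte and mast cell markers reached 8884, 10125, 4667 and 2181 CPM in the library highest for each. Xist, the RNA of the inactive X chromosome of females, was above 50 CPM in 4 of 4 WT and 2 of 6 KO libraries, so the sex of the embryo is partly tied to genotype. Spi1 was between 9.10 and 101 CPM in KO and between 6.22 and 50.1 CPM in WT, and so gave no check of the labels in these cells.

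In WT, levels per transcript length (TPM) spanned from 2109 ± 690 (SD, n = 4) for Sod1 to 4.07 ± 1.09 for Srxn1. Sod1 encodes the superoxide dismutase of the cytosol, and Srxn1 encodes sulfiredoxin, which repairs overoxidized peroxiredoxins. Gpx1, the main cytosolic glutathione peroxidase, followed at 2040 ± 1203 TPM, and Prdx2, the peroxiredoxin abundant in red cells, at 1778 ± 861 TPM. The first 3 genes did not differ beyond their spread. Below a gap came Gstp1 (645 ± 165 TPM), Prdx1 (633 ± 219 TPM), Prdx6 (522 ± 379 TPM) and Gpx4 (455 ± 41.1 TPM), again within each other's spread. Besides Srxn1, the genes under 10 TPM were Gclc (9.12 ± 2.40), Nqo1 (9.0 ± 1.06), Gpx7 (8.14 ± 4.51) and Mgst2 (6.90 ± 6.56).

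In KO, 4 of the 37 genes fell: Glrx5, Gstp1, Prdx3 and Sod1. They encode a glutaredoxin of mitochondrial iron-sulfur cluster assembly, the pi class glutathione transferase, the mitochondrial peroxiredoxin and the cytosolic superoxide dismutase. None rose, and 30 of the 37 had a log2 fold change below 0, while on the TPM scale, where the median of all genes was above 0, 17 had a lower mean in KO. A gene was counted as lower or higher at an edgeR adjusted p below 0.1, the threshold of the study, with adjustment over all 16725 genes tested. By that count 2.67% of all genes were lower and 1.32% higher. Most of the 37 genes are short, and short genes were lower across the table (below). Among the 500 tested genes nearest in length to each of the 37, 0.8 to 11.6% were called lower. That share was 3.6% for Glrx5, 4.2% for Prdx3, 11.2% for Gstp1 and 11.4% for Sod1. Over the 37 genes, log2 fold changes had a median of -0.35, against 0.06 over all genes, 46.9% of which were below 0. At an unadjusted p below 0.05, 13 of the 37 were lower and 0 higher, beside 10.2% and 8.60% of all genes. With DESeq2 under the settings of the study, 4 were lower (Prdx3, Glrx5, Nqo1 and Gstp1) and 0 higher, where 3.29% and 3.50% of all genes were called, and without its fold-change threshold 9 were lower and 0 higher, where 6.85% and 5.97% were. In CPM, the 6 KO libraries all lay below the 4 WT libraries for 3 of the 37 (Glrx5, Gstp1 and Nqo1), beside 3.48% of all genes. They all lay above them for 0, beside 2.88%. On the TPM scale the groups overlapped for Gstp1 and Nqo1.

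The calls were near the threshold. The smallest adjusted p of any gene was 0.0743. Without KO replicate 15405, 15406, 15411, 15412 or 15415 or WT replicate 15416, 0 of the 37 genes passed, as did 0 genes of the whole table (1 without KO replicate 15411). At an unadjusted p below 0.05, 10 to 15 of the 37 were lower in these fits, beside 7.93 to 10% of all genes. Without WT replicate 15420, 7 were called lower, beside 451 of all 16671 genes tested. Without WT replicate 15418 only Glrx5 and Gstp1 were, beside 401 of 16616. Without WT replicate 15417, 5 were, beside 532 of 16662, and without KO replicate 15409, 3 were, beside 598 of 16602. In bulk RNA, fewer cells of a type and less RNA per cell cannot be told apart.

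**Figure D1:**
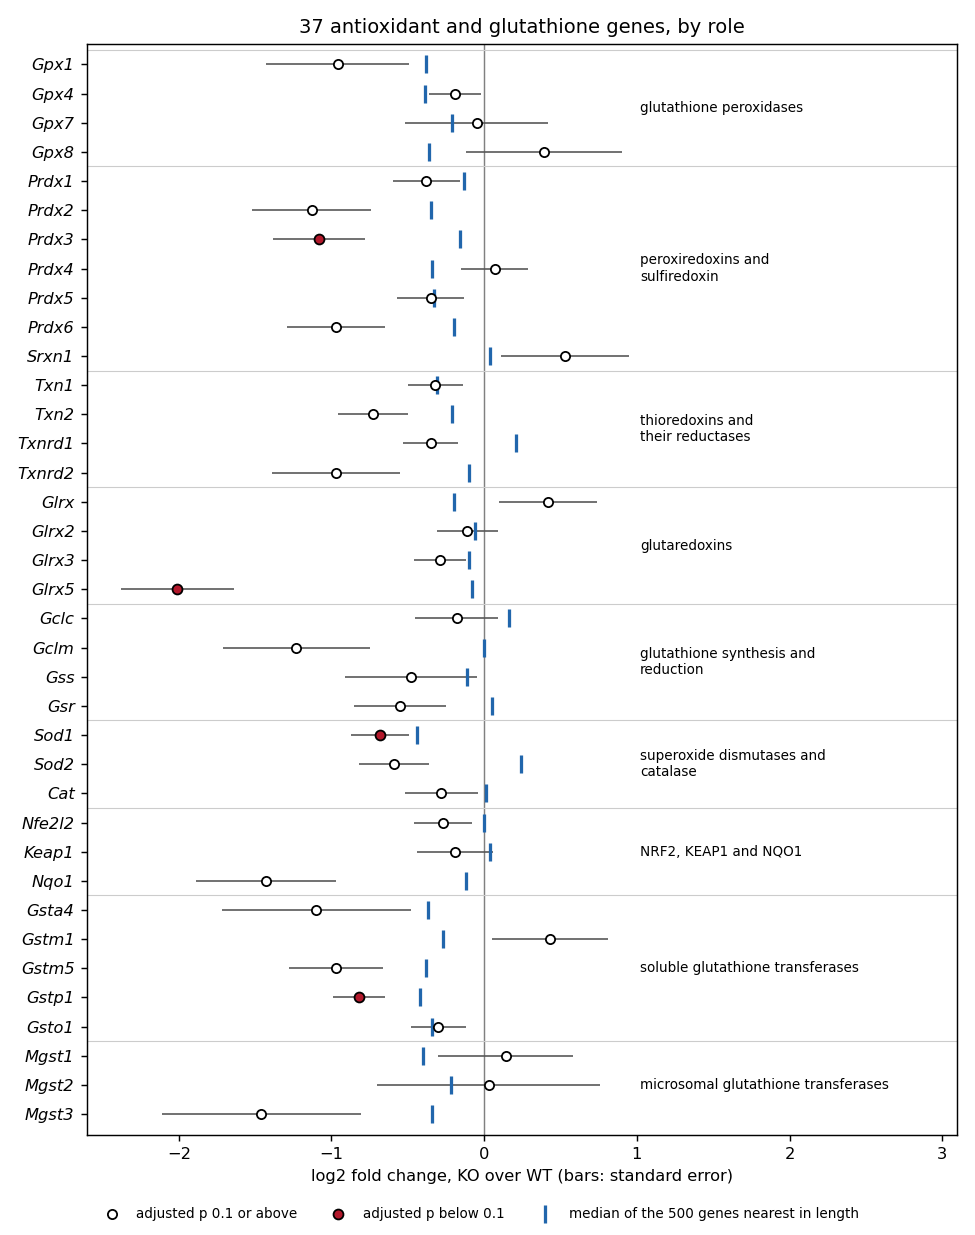
Log2 fold change of each of the 37 genes, KO over WT, with its standard error as a bar, ordered by role; filled points had an edgeR adjusted p below 0.1 and blue ticks give the median of the 500 tested genes nearest in transcript length. On this scale 30 points lie left of 0 (by mean TPM 17 genes were lower), Glrx5 farthest at -2.01, and 27 lie left of their own tick.

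Glrx5 had the largest difference. It lies on chromosome 12 of GRCm38 from 105032688 to 105042906. In KO it was measured at 55.9, 40.3, 68.7, 43.0, 77.3 and 117 CPM, in the order of libraries given above, and in WT at 344, 172, 433 and 134 CPM. The groups did not overlap, although the highest KO library, 15415, came close to the lowest WT library, 15420. The log2 fold change was -2.01 (standard error 0.37, edgeR adjusted p = 0.0824). The direction held under each of the 25 alternatives, with values from -2.34 to -1.33, and the call held in 16. On the TPM scale, too, 6 of 6 KO libraries lay below the lowest WT library, with 73.5 ± 18.8 TPM (SD, n = 6) against 221 ± 92.7 TPM (SD, n = 4).

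The other glutaredoxins showed smaller differences. Glrx, the cytosolic enzyme, had 36.3 ± 12 CPM in KO and 27.2 ± 6.46 CPM in WT, and 5 of 6 KO libraries lay above the highest WT library. Its log2 fold change was 0.42 (standard error 0.32, edgeR adjusted p = 0.518). Glrx2, found in mitochondria and nucleus, was at -0.11, and Glrx3, which carries iron-sulfur clusters in the cytosol, at -0.29; both had an edgeR adjusted p of 0.370 or above.

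Among the glutathione transferases, Gstp1 fell. Its gene lies on chromosome 19 from 4035407 to 4037985. KO libraries had 350, 301, 344, 266, 295 and 335 CPM and WT libraries 510, 457, 525 and 734 CPM. In CPM the groups were separated by more than the spread within KO, and no library of either group stood between them. On the TPM scale they overlapped, with 3 of 6 KO libraries below the lowest WT library. The highest KO library was at 602 TPM and the lowest WT library at 461 TPM. The log2 fold change was -0.82 (standard error 0.17, edgeR adjusted p = 0.0824), from -0.92 to -0.63 over the alternatives and called in 14 of 25. Its near copies Gstp2 and Gstp3 share sequence with it, so that reads may be divided among them by the quantification. Gstp3 was at 10.6 ± 4.88 CPM in KO and 23.0 ± 13.2 CPM in WT and Gstp2 at 1.73 ± 1.35 and 2.96 ± 1.51 CPM. How reads were divided among the 3 genes was not tested.

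Gstm5 and Gsta4 had values below 0 that did not pass. Gstm5, a mu class transferase, was at 58.2 to 89.4 CPM in KO and at 83.1, 95.1, 109 and 273 CPM in WT (log2 fold change -0.97, standard error 0.31, edgeR adjusted p = 0.126). Only 1 KO library, 15412, reached the WT range. Gsta4, which acts on lipid peroxidation products, was at -1.10 (standard error 0.62), and at -0.06 without WT replicate 15416, the library at 59.5 CPM where the other WT libraries had 6.80 to 15.9. Without that library Gstm5 was at -0.42. Gsto1, of the omega class, was at -0.30. Gstm1 was the exception, with 65.7 to 308 CPM in KO and 83.5 to 180 CPM in WT and a log2 fold change of 0.43 (edgeR adjusted p = 0.588). It belongs to a cluster of near-identical mu class genes on chromosome 3, and its count is uncertain to that extent.

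The microsomal transferases, which sit in membranes, were split. Mgst3 had 84.5, 58.5, 59.3, 74.7, 153 and 214 CPM in KO and 171, 95.5, 841 and 77.6 CPM in WT. The groups overlapped, and the WT mean of 296 ± 365 CPM rested on replicate 15418, the library with 23.5% of its counts on globin genes. For Mgst3 this gave a log2 fold change of -1.46 (standard error 0.65, edgeR adjusted p = 0.254), and -0.04 without that library. Mgst1 and Mgst2 were at 0.14 and 0.03, with edgeR adjusted p of 0.901 and 0.986.

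**Figure D2:**
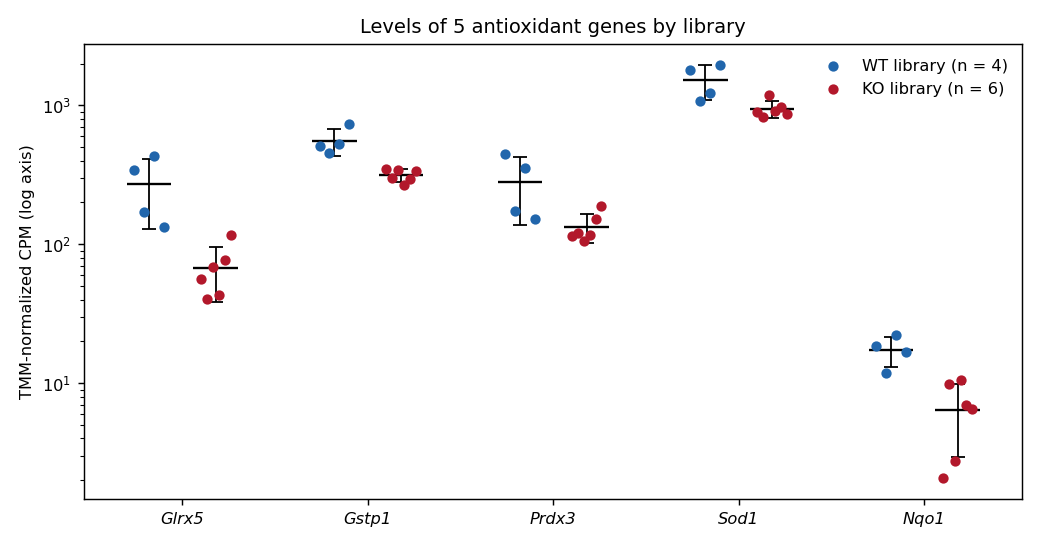
TMM-normalized CPM (log axis) of Glrx5, Gstp1, Prdx3, Sod1 and Nqo1 in each library, 4 WT in blue and 6 KO in red; lines give the mean and bars the SD. In CPM the groups are apart for Glrx5, Gstp1 and Nqo1 and overlap for Prdx3 and Sod1. In TPM, not shown, Gstp1 and Nqo1 overlap as well.

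Peroxiredoxins reduce hydrogen peroxide with a cysteine that thioredoxin restores. Prdx3, the mitochondrial member, was at 115, 120, 106, 116, 153 and 189 CPM in KO and at 448, 173, 354 and 151 CPM in WT. The KO libraries lay low and close together, and KO replicates 15412 and 15415 exceeded the lowest WT library, 15420. Prdx3 fell, with a log2 fold change of -1.08 (standard error 0.30, edgeR adjusted p = 0.0947), from -1.33 to -0.45 over the alternatives and called in 10 of 25. The value nearest to 0 came with early erythroid markers as a covariate. It lies on chromosome 19 from 60864051 to 60874556.

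The cytosolic members were lower in mean without passing. Prdx2 had 724, 564, 673, 666, 1169 and 1413 CPM in KO and 1857, 984, 3777 and 975 CPM in WT. In both groups the libraries with the highest globin share, KO replicate 15415 and WT replicate 15418, had the highest level. Prdx2 was at -1.13 on the log2 scale (standard error 0.39, edgeR adjusted p = 0.155), and at -0.50 without WT replicate 15418. Prdx6, which also reduces phospholipid peroxides, was at -0.97 (edgeR adjusted p = 0.139), with WT replicate 15416 at 1427 CPM and all other libraries of both groups at 275 to 532 CPM. Without that library Prdx6 was at -0.37. Prdx1 was at -0.38 and Prdx5, targeted to mitochondria and peroxisomes, at -0.35 (-0.08 without WT replicate 15420). Prdx4, the peroxiredoxin of the endoplasmic reticulum, was at 135 ± 11.5 CPM in KO and 129 ± 44.5 CPM in WT (log2 fold change 0.07). Srxn1 was at 0.53, the highest value of the 37, with 7.25 to 29.8 CPM in KO, 7.36 to 21.4 CPM in WT and an edgeR adjusted p of 0.528.

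Superoxide dismutases and catalase were below 0 in 3 of 3 cases. Sod1 lies on chromosome 16 from 90220754 to 90226329. It had 902, 825, 1191, 914, 981 and 862 CPM in KO and 1805, 1074, 1228 and 1963 CPM in WT. Only KO replicate 15409 exceeded the lowest WT library. Sod1 fell, with a log2 fold change of -0.68 (standard error 0.19, edgeR adjusted p = 0.0993), and it was called in 7 of 25 alternatives, with values from -0.82 to -0.49. On the TPM scale its means, 1781 ± 366 in KO and 2109 ± 690 in WT, were within their spread, and 0 of 6 KO libraries lay below the WT range. Sod2, the enzyme of the mitochondrial matrix, had 93.0 to 156 CPM in KO and 130 to 274 CPM in WT (log2 fold change -0.59, standard error 0.23, edgeR adjusted p = 0.192), and was at -0.32 without WT replicate 15416. Cat, the peroxisomal catalase, was at 139 to 197 CPM in KO and at 148, 149, 168 and 335 CPM in WT (log2 fold change -0.28). The value of Cat was 0.14 without WT replicate 15418, the library at 335 CPM.

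Glutathione peroxidases held none of the calls. Gpx1 had 808, 874, 611, 1088, 1545 and 2313 CPM in KO and 1965, 1140, 5139 and 1123 CPM in WT. Its highest libraries were again KO replicate 15415 and WT replicate 15418, and the groups overlapped. Gpx1 had a log2 fold change of -0.96 (standard error 0.47, edgeR adjusted p = 0.304), and of -0.17 without WT replicate 15418. Gpx4, which reduces lipid hydroperoxides and holds back ferroptosis, was at 408 ± 55.7 CPM in KO and 465 ± 97.1 CPM in WT (log2 fold change -0.19, standard error 0.17, edgeR adjusted p = 0.603). Gpx7 and Gpx8, of the endoplasmic reticulum, were at 25.2 and 33.8 CPM or below in every KO library and at 17.9 and 19.7 CPM or below in every WT library, with log2 fold changes of -0.05 and 0.39.

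Thioredoxins and their reductases were below 0 in 4 of 4 cases, and none passed. Txn1, the cytosolic thioredoxin, had 220 to 311 CPM in KO and 259, 280, 356 and 418 CPM in WT (log2 fold change -0.32, standard error 0.18, edgeR adjusted p = 0.361). Txn2, its mitochondrial counterpart, had 180 to 263 CPM in KO and 221, 284, 407 and 522 CPM in WT, with 4 of 6 KO libraries below the WT range (log2 fold change -0.73, standard error 0.23, edgeR adjusted p = 0.118). Txnrd2, the mitochondrial reductase, ranged from 34.2 to 253 CPM within WT alone, around all 6 KO libraries at 57.9 to 112 CPM. Its log2 fold change was -0.97 (standard error 0.42), or -0.53 without WT replicate 15418 and -1.30 without WT replicate 15420, and that of Txnrd1, the cytosolic reductase, -0.35.

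Glutathione is made by glutamate-cysteine ligase, with the catalytic subunit Gclc and the modifier subunit Gclm, and by the synthetase Gss; Gsr reduces it again after use. Gclm had 31.6, 19.0, 36.5, 43.7, 67.4 and 123 CPM in KO and 168, 67.9, 197 and 69.8 CPM in WT. All KO libraries but 15415 lay below the WT range, in which 15415 fell. The log2 fold change of Gclm was -1.23 (standard error 0.48, edgeR adjusted p = 0.197), and it was below 0 in each of the 25 alternatives, from -2.20 to -0.55, without a call in any. Gclc was at -0.18, with 33.6 ± 12.3 CPM in KO and 38.1 ± 8.20 CPM in WT, Gss at -0.48 (-0.09 without WT replicate 15418) and Gsr at -0.55. WT replicate 15420 was the lowest of all 10 libraries for both Gss (18 CPM) and Gsr (32.6 CPM).

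Nfe2l2 and Keap1, the regulator pair, did not pass. Nfe2l2 was at 69.3 to 90.9 CPM in KO and at 75, 77.5, 102 and 120 CPM in WT (log2 fold change -0.27, standard error 0.19, edgeR adjusted p = 0.460). Keap1 was at -0.19, and at 0.07 without WT replicate 15420. Nqo1, a quinone reductase and the classical readout of NRF2 activity, was weakly expressed, with 2.07, 9.80, 2.76, 10.5, 6.93 and 6.51 CPM in KO and 18.4, 11.9, 22.2 and 16.7 CPM in WT. The highest KO library, at 10.5 CPM, stayed below the lowest WT library, at 11.9 CPM. On the TPM scale the groups overlapped, with 4 of 6 KO libraries below the lowest WT library. The highest KO library was at 8.24 TPM and the lowest WT library at 7.69 TPM. The log2 fold change of Nqo1 was -1.43 (standard error 0.46, edgeR adjusted p = 0.133), which missed the threshold, while DESeq2 with the settings of the study gave an adjusted p of 0.0702. It lies on chromosome 8 from 107388225 to 107403206, and no copy of the core was found in its window.

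Sorted by place in the cell, the 7 mitochondrial genes (Prdx3, Prdx5, Txn2, Txnrd2, Glrx2, Glrx5 and Sod2) were all below 0, with 2 called and a median log2 fold change of -0.73. At an unadjusted p below 0.05, 5 of these 7 were lower, beside 10.2% of all genes. Of all genes, 46.9% were below 0 and 2.67% were called lower. Among the 500 tested genes nearest in length, the share called lower ran from 1.2% for Sod2 to 8.0% for Prdx5. With early erythroid markers as a covariate (below), Txn2 was at -0.33, Sod2 at -0.24, Glrx2 at -0.12 and Txnrd2 at 0.23. In that fit Glrx5 was at -1.33, Prdx5 at -0.54 and Prdx3 at -0.45. The 6 genes of the secretory pathway or of membranes had 4 above 0, 0 called and a median of 0.05, and the 24 others 21 below 0, 2 called and a median of -0.36. The 4 genes of the set whose proteins contain selenocysteine (Gpx1, Gpx4, Txnrd1 and Txnrd2) were below 0 with a median of -0.65 and 0 called by edgeR, 1 of them at an unadjusted p below 0.05. The difference between places in the cell was not tested.

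Transcript length had to be set beside these values, because short genes were lower in KO across the whole table. The median length of the 37 genes was 1285 bases, against 2661 bases for all genes tested, and 31 of the 37 were shorter than that. For each gene, the 500 tested genes nearest in length had a median log2 fold change between -0.44, for Sod1 (646 bases, the shortest of the set), and 0.24, for Sod2 (3824 bases, the longest). Of the 37, 27 lay below the median of their own neighbours in length and 10 above. The median difference was -0.29. Glrx5, at 1571 bases, differed by -1.94 from its neighbours, 3.60% of which were called lower. Nqo1 differed by -1.32, Gclm by -1.23, Mgst3 by -1.12, Prdx3 by -0.91 and Sod2 by -0.82. For Gstp1 and Sod1 the neighbours themselves had medians of -0.42 and -0.44. The genes differed from them by -0.40 and -0.24, and 11.2% and 11.4% of those neighbours were called lower. Gpx8 lay farthest above its neighbours, by 0.76.

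**Figure D3:**
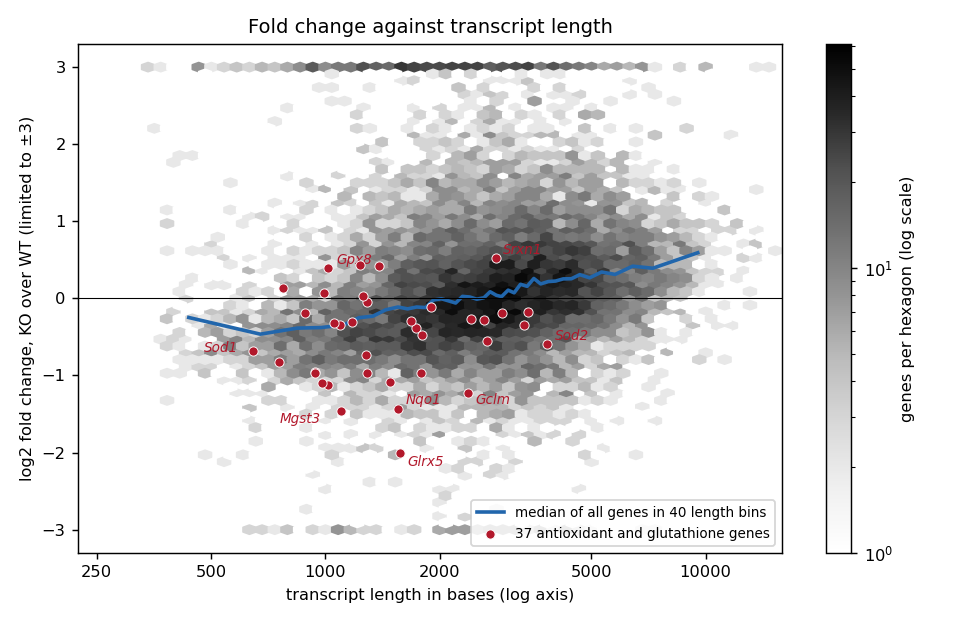
Log2 fold change, KO over WT, against transcript length in bases (log axis); grey hexagons count all tested genes, the blue line is their median in length bins and red points are the 37 genes. The blue line is below 0 for short genes and above 0 for long ones, and most red points lie below it.

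Direction also depended on the scale. On the TPM scale, which divides by length within each library and was not normalized further, the median log2 ratio of KO to WT over all genes was 0.47, and 26.1% of genes had a lower mean in KO. For the 37 genes the median was 0.06, and 17 had a lower mean TPM in KO and 20 a higher one. Relative to all genes the members thus stood at -0.41 on the TPM scale, and 31 of the 37 were below the median of all genes. With counts and TMM the same difference of medians was -0.41. Fitted with an offset for length, edgeR gave a median of -0.50 for the 37 genes and -0.17 for all genes, and called Prdx3, Glrx5 and Sod2 lower. The edgeR adjusted p in that fit was 0.135 for Gstp1 and 0.261 for Sod1.

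The globin share of the libraries was set beside these values. A term for the log2 globin share, fitted beside genotype, had an adjusted p below the threshold for 115 genes (0.688%) and for none of the 37. At an unadjusted p below 0.05, 8 of the 37 were related to globin share, beside 7.41% of all genes. Mgst3 had the largest coefficient of the 37, 0.32 log2 units per doubling of the share (edgeR adjusted p = 0.118), followed by Gpx1 (0.23) and Mgst1 (0.23). Prdx2 had a coefficient of 0.17. The coefficients of the called genes were smaller, with 0.11 for Glrx5, 0.04 for Prdx3, -0.02 for Gstp1 and -0.06 for Sod1.

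With globin share as a covariate, the 4 called genes were still called and Prdx2 was added, and the log2 fold changes were -2.05 for Glrx5, -0.82 for Gstp1, -1.10 for Prdx3 and -0.65 for Sod1. In the 7 libraries with under 5% of counts on globin genes (4 KO and 3 WT), they were -2.02, -0.81, -1.12 and -0.72, with 0 genes of the table called by edgeR. At an unadjusted p below 0.05, 12 of the 37 were lower there, beside 9.63% of all genes. In the 6 libraries with Xist (2 KO and 4 WT) the 4 genes were at -2.34, -0.80, -1.33 and -0.60, again with 0 genes called, and 7 of the 37 lower at an unadjusted p below 0.05, beside 2.94% of all genes. With Xist as a covariate for sex, 0 genes of the table were called, and Glrx5, Gstp1, Prdx3 and Sod1 were at -2.26, -0.79, -1.27 and -0.62 with edgeR adjusted p of 0.271 to 0.295.

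Since the early erythroid markers did not follow globin share in every library, the mean log2 CPM of Klf1, Epor, Tfrc and Ermap was also used as a covariate. These markers themselves had log2 fold changes of -1.99, -1.0, -0.97 and -1.22 in KO against WT. The covariate is therefore partly tied to genotype, and the shares of the 2 in a change of value cannot be told apart. With it, Glrx5 was at -1.33, Gstp1 at -0.92 and Sod1 at -0.81, with edgeR adjusted p of 0.0842, 0.0842 and 0.0884. Prdx3 was at -0.45 and no longer passed (edgeR adjusted p = 0.207). In all, 3 of the 37 were called lower and 0 higher, beside 2.32% and 1.58% of all genes, and at an unadjusted p below 0.05, 7 of the 37 were lower, beside 9.27%. Among the mitochondrial genes Txn2 moved to -0.33, Sod2 to -0.24 and Txnrd2 to 0.23, while Prdx5 was at -0.54. Gpx1 was at -0.13, Prdx2 at -0.39, Gclm at -0.55 and Mgst3 at -0.08, and Gss reached 0.67. Prdx1 moved away from 0, from -0.38 to -0.62. The median of the 37 was then -0.25, against 0.19 for all genes. The part of the higher LT-HSC marker level of KO libraries in these values was not tested.

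**Figure D4:**
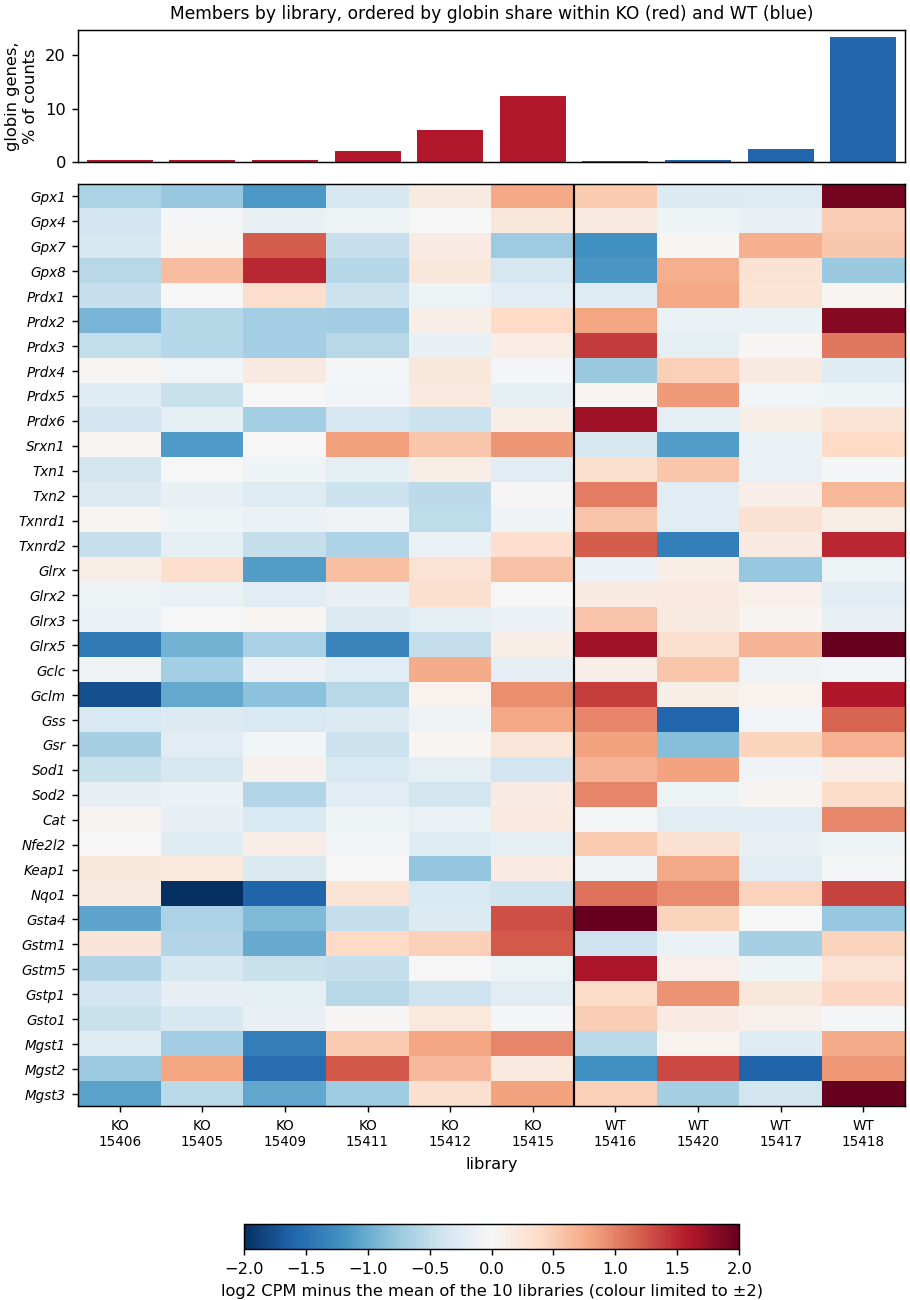
Upper panel, percent of counts on globin genes in each library, ordered by that share within KO (red) and WT (blue); lower panel, log2 CPM of each of the 37 genes minus its mean over the 10 libraries (colour limited to 2 on either side). WT replicate 15418, with 23.5% globin, is the library highest for Gpx1, Prdx2 and Mgst3, while Glrx5 is above its mean in each WT library.

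Most of the TPM of Glrx5 was on a transcript without an annotated coding sequence. Glrx5-202, a processed transcript of 722 bases, took 81.0 ± 3.94% of the gene's TPM in KO and 79.2 ± 1.83% in WT, so the share was alike. It was at 59.6 ± 15.7 TPM in KO and 174 ± 72.2 TPM in WT. The coding transcript Glrx5-201 was at 9.48 ± 3.24 TPM in KO and 27.0 ± 10.1 TPM in WT, and its highest KO library (14.4 TPM) lay below its lowest WT library (16.5 TPM). Prdx6 had 6.73 ± 0.580% of its TPM on transcripts annotated as protein-coding in KO and 5.72 ± 1.34% in WT, and Prdx2 had 43.4 ± 3.75% and 41.0 ± 4.58%. The main Prdx6 transcript, Prdx6-208, is of another type than Glrx5-202, being annotated for nonsense-mediated decay. It took 50.7% of the TPM of Prdx6 in KO and 50.5% in WT. Gstp1, Sod1, Prdx3, Sod2 and Nqo1 have 1 transcript each in the annotation. Counting was not stated to use strand, and Prdx5 shares 19.1% of its exonic bases with Trmt112 on the opposite strand, Gstm5 13.9% with 4933431E20Rik and Keap1 10.9% with Gm16754, so their counts may hold reads of those genes.

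Of 103 other genes of the same pathways, 2 rose and 5 fell, beside 1.32% and 2.67% of all genes, and 59 were below 0 with a median of -0.10. At an unadjusted p below 0.05, 8 were higher and 19 lower, beside 8.60% and 10.2%. The 16 further NRF2 targets and partners held 0 calls by edgeR, with 5 lower and 0 higher at an unadjusted p below 0.05. Closest was Fth1, the ferritin heavy chain that stores iron, at 1216 to 2617 CPM in KO and 2737, 3041, 4235 and 5266 CPM in WT, without overlap (log2 fold change -0.88, standard error 0.25, edgeR adjusted p = 0.103).

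Among the 10 genes that supply NADPH, 9 were below 0 and Mthfd2 fell. Mthfd2 encodes an enzyme of mitochondrial one-carbon metabolism, and had 23.3 to 49.1 CPM in KO and 38.9, 57.6, 113 and 119 CPM in WT (log2 fold change -1.25, standard error 0.32, edgeR adjusted p = 0.0836). Of 17 other genes of glutathione metabolism and transport, Glo1 fell. Its product, glyoxalase 1, uses glutathione to clear methylglyoxal, and it had 158 to 201 CPM in KO and 229, 239, 292 and 344 CPM in WT (log2 fold change -0.63, standard error 0.16, edgeR adjusted p = 0.0861). Of 12 thioredoxin-like genes, 10 were below 0 and Txnl4a fell (log2 fold change -0.63, edgeR adjusted p = 0.0963). Despite its thioredoxin fold, its product is a component of the spliceosome.

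Of 19 genes of selenoprotein synthesis and other selenoproteins, Selenoo and Selenos fell, both without overlap. Of all genes, 2.67% were called lower and 3.48% had all KO libraries below all WT libraries. Among the related genes, Park7, Txnl1, Tmx1 and Tmx2 were without overlap in that direction too, and were not called. Selenoo, of mitochondria, had 15.0 to 27.3 CPM in KO and 33.9 to 45.8 CPM in WT (log2 fold change -0.94, edgeR adjusted p = 0.0824). Selenos, a membrane protein of the endoplasmic reticulum, had 49.7 to 76.0 CPM in KO and 84.8 to 147 CPM in WT (log2 fold change -0.81, edgeR adjusted p = 0.0831).

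The 2 genes called higher, Sesn3 and Prdm16, were not enzymes of the glutathione or thioredoxin systems. Sesn3, a sestrin and a target of FOXO factors, was in a list of 7 methionine sulfoxide reductases and sestrins of which 5 were above 0. It had 9.26 to 21.8 CPM in KO and 3.68 to 9.02 CPM in WT, without overlap (log2 fold change 1.42, standard error 0.37, edgeR adjusted p = 0.0901). All KO libraries lay above all WT libraries for 2.88% of all genes. At an unadjusted p below 0.05, 3 of the 7 were higher and 0 lower, beside 8.60% and 10.2% of all genes. Among the 3 was the reductase Msra (log2 fold change 0.77, edgeR adjusted p = 0.129). Prdm16, a transcription factor needed by blood stem cells, was in a list of 14 regulators of oxidant levels in these cells. In that list 11 genes were above 0, as were 8884 of all 16725 genes. At an unadjusted p below 0.05, 4 of the 14 were higher and 0 lower. Prdm16 had 35.0, 61.8, 8.02, 59.2, 32.9 and 54.3 CPM in KO and 5.61, 12, 8.50 and 1.56 CPM in WT. Only KO replicate 15409 lay in the WT range (log2 fold change 2.59, standard error 0.61, edgeR adjusted p = 0.0824). That library had the lowest LT-HSC marker sum in KO, 827 CPM. Meis1, also of this list, was itself 1 of the 13 LT-HSC markers. The part of the LT-HSC marker level in these values was not tested. Of 8 NADPH oxidase subunits, the source of deliberate superoxide, 6 were above 0 and none passed by edgeR, with 1 higher at an unadjusted p below 0.05. That gene was Nox4, at 1.95 to 4.86 CPM in KO and 0.152 to 1.42 CPM in WT (log2 fold change 2.10, standard error 0.71, edgeR adjusted p = 0.148).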

How the data were processed

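LT-HSCs were sorted from fetal livers at embryonic day 14.5, and SmartSeq2 libraries were sequenced single-end. The authors demultiplexed with bcl2fastq 2.20 and ran kallisto 0.44.0 against the Gencode vM16 annotation (GRCm38). For each library the authors deposited estimated counts and TPM per transcript, TPM being scaled by kallisto for effective length. The authors also deposited whole-number counts per gene symbol, not normalized, which were within 1 count of the sums of the transcript estimates for 365 of 370 values of these genes.

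A total of 11 counts over the libraries was required of a gene, and the test was made with edgeR 4.0.16 in R 4.3.3 (TMM, robust quasi-likelihood fit, 6 KO against 4 WT, Benjamini-Hochberg adjustment over all genes tested, threshold 0.1). DESeq2 1.42.0 with the study's log2 fold-change threshold of 0.1 was an alternative. Further alternatives were DESeq2 size factors, other filters, length offsets (loess, span 0.3), transcript sums with average-length offsets, Xist as a covariate and each library left out. Chosen after seeing the data were globin share or early erythroid markers as a covariate, globin genes left out, libraries under 5% globin, libraries with Xist and an unweighted length. Lengths were means over a gene's transcripts weighted by estimated counts, and positions came from Gencode vM21. Python 3.11.15 made tables.

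Named in full were members past the threshold or without overlap between groups, the member of each role group with the highest WT TPM and, from related lists, genes past the threshold and the gene with the smallest p. Selenocysteine, Gstm5, Prdx6, Glrx, Txn2 and other values outside that rule were chosen after they were seen. Some marker results are not reported here. The members and lists were chosen with earlier results of these data known. The reads carry no molecular identifiers. The study describes the controls as littermates, but the labels give no litter or date, so p-values measure only the spread between these libraries, 1 per embryo by the numbers the study gives.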

Additional observations from a re-analysis of the deposited data

Results flagged for a closer look

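In 12 of 74 groups of values (37 genes in KO and in WT), 1 library lay farther from the rest than Dixon's test allows at the 95% level. Chance gives about 5% for independent values with a normal spread. The values here were CPM without logs, and the same libraries recur across genes, so the 12 cannot be read as an excess over that share. In WT, replicate 15416 was highest for Prdx6 at 1427 CPM (others 387 to 532) and Gstm5 at 273 CPM (83.1 to 109). Replicate 15418, with the highest globin share, was highest for Mgst3 at 841 CPM (77.6 to 171) and Cat at 335 CPM (148 to 168). Replicate 15420 was highest for Prdx5 at 208 CPM (109 to 119) and Keap1 at 121 CPM (61.6 to 70.9), both of which share exonic bases with a gene on the opposite strand. In KO, replicate 15415 was highest for Gss at 92.6 CPM (43.5 to 50.1) and Gsta4 at 28.5 CPM (5.53 to 9.65). Replicate 15412 was highest for Gclc at 57.2 CPM (21.1 to 32.6) and Glrx2 at 42.7 CPM (29.1 to 34.1) and lowest for Txnrd1 at 78.5 CPM (103 to 114). Replicate 15409 was highest for Gpx7 at 25.2 CPM (6.57 to 12.1). None of the 4 called genes was among the 12.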

How the results depend on the processing

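The number of the 37 genes called higher was 0 by edgeR and DESeq2 in all 25 alternatives (also 0 at an unadjusted p below 0.05 in the fit reported, beside 8.60%). Of all genes, 1.32% were called higher in the fit reported. No gene of the table was called, higher or lower, with the Xist covariate, under 5% globin or in libraries with Xist. The same held without KO replicate 15405, 15406, 15412 or 15415 or WT replicate 15416. A count of 0 in those fits is not particular to the 37. The median difference from genes of similar length stayed between -0.42 and -0.20 in the 14 alternatives in which it was computed. The number called lower, 4 in the report, was 9 with DESeq2 and no fold-change threshold, 2 with DESeq2 size factors, transcript sums or globin genes left out, 0 with the Xist covariate, in libraries under 5% globin or in libraries with Xist, and 0 to 7 with 1 library left out. Related genes called higher (2 in the report) were 5 with DESeq2 under the study's settings, 7 with no fold-change threshold, 1 with the unweighted length offset, 0 with the length offset, transcript sums, the Xist covariate, under 5% globin or in libraries with Xist, and 0 to 6 with 1 library left out. Related genes called lower (5 in the report) were 13 with DESeq2 and no fold-change threshold, 10 with filterByExpr, 8 with the globin covariate, 3 with the length offset, 0 with the Xist covariate, under 5% globin or in libraries with Xist, and 0 to 7 with 1 library left out. Over all genes, 33 were higher and 340 lower with the length offset, 49 and 453 with the unweighted length, and 0 and 0 with the Xist covariate (866 and 1507 at an unadjusted p below 0.05). The median of the 37 genes was -0.60 in libraries with Xist and between -0.55 and -0.25 otherwise.

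Under the alternatives, 42 values of single genes changed sign, none of them of a called gene or of Nqo1. Gpx7 was 0.02 with the length offset, 0.01 with transcript sums, 0.28 with the Xist covariate, 0.26 under 5% globin, 0.42 in libraries with Xist and 0.08 with the unweighted length. Under the same settings Glrx was -0.01 with the Xist covariate and -0.20 in libraries with Xist, Gstm1 -0.13 in libraries with Xist, Cat 0.07 under 5% globin and Keap1 0.00 with transcript sums. Mgst1 was -0.55 with the Xist covariate, -0.02 under 5% globin and -0.82 in libraries with Xist. Mgst2 was -0.31 with transcript sums, -1.06 with the Xist covariate and -1.51 in libraries with Xist. With early erythroid markers as a covariate, Gpx4 was 0.00, Gpx8 -0.18, Prdx4 -0.14, Txnrd2 0.23, Gss 0.67, Gsr 0.02, Cat 0.05 and Mgst2 -0.11, and Prdx3 kept its sign at -0.45 without a call. With 1 library left out, ranges that met or crossed 0 were -0.42 to 0.18 for Gpx7, -0.27 to 0.00 for Gpx4, -0.01 to 0.77 for Gpx8, -0.11 to 0.28 for Prdx4, -0.40 to 0.14 for Cat, -0.30 to 0.07 for Keap1, -0.08 to 0.50 for Mgst1 and -0.29 to 0.60 for Mgst2. The cause of these changes was not tested.

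No paired analysis was possible because the groups share no replicate numbers and the labels name no litters, although the study describes littermates. Depth limits the precision of Mgst2, with 12 counts in its lowest library, and of Nqo1, with 34. The number of WT libraries (4), the tie of sex to genotype and adjusted p-values bunched just under the threshold limit each call.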
